A study of Mus musculus with 5 samples.

Results

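The Gimap genes (GTPases of immunity-associated proteins) are a family of lymphocyte genes that lie side by side on mouse chromosome 6. The 8 members measured here, Gimap1, Gimap3, Gimap4, Gimap5, Gimap6, Gimap7, Gimap8 and Gimap9, were taken by gene symbol from the 24084 genes of the count table, and all 8 were found and passed the filter on low counts. The family was selected on its measured counts in this same table, which were already known to differ between the groups compared here, so the differences of the members between lymph node and skin are given as a description, without a test.

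RNA was sequenced from sorted regulatory T cells (Tregs), the Foxp3-expressing T cells that restrain immune responses. All mice were 13 days old and of the Foxp3-DTR/GFP line, in which Foxp3-expressing cells also make the receptor for diphtheria toxin and a green fluorescent protein, so both groups carried the same allele. The lymph node group consisted of 3 libraries of Tregs from skin-draining lymph nodes and the skin group of 2 libraries of Tregs from skin. The labels record no treatment, do not name the sort markers and do not say how many animals stand behind a library, so the spread between libraries may be technical in part.

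GIMAP proteins bind guanine nucleotides through a domain that is related to that of the septins, and most of them sit on intracellular membranes. They are made mainly by lymphocytes and are known for their part in the survival and maintenance of mature T and B cells. Loss of Gimap5 causes lymphopenia in rodents, and loss of Gimap1 in T cells depletes the peripheral T cell pool.

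All members hold the phosphate-binding loop of the GTPase domain, which other GTPases have as well. Its 24 coding bases are shown for every member because they show the nucleotide-binding site in each and how far the members differ there, and because the near identity of Gimap3 and Gimap5 bears on how their reads could be counted. Sequences were read from the GENCODE M21 transcripts (mm10) from 5′ to 3′. Capitals mark the codon of the first glycine and the codons of the glycine, lysine and serine that close the loop.
Gimap4, chr6:48690421-48690444, plus strand: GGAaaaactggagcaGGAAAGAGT
Gimap3, chr6:48765887-48765910, minus strand: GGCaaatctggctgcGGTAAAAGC
Gimap5, chr6:48752594-48752617, plus strand: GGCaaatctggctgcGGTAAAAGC
Gimap6, chr6:48702750-48702773, minus strand: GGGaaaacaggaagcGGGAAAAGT
Gimap9, chr6:48677523-48677546, plus strand: GGGaagactggaaatGGGAAGAGT
Gimap7, chr6:48723524-48723547, plus strand: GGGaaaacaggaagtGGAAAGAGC
Gimap1, chr6:48742552-48742575, plus strand: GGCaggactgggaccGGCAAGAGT
Gimap8, first loop, chr6:48650256-48650279, plus strand: GGGaaacagggcgcaGGCAAAAGT
Gimap8, second loop, chr6:48656119-48656142, plus strand: GGGaagcgtggtgttGGGAAAAGT
Gimap8, last loop, chr6:48658746-48658769, plus strand: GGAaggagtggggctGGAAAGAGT

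Each loop lay within a single coding exon. Gimap8 held 3 of them in a coding sequence of 688 codons, whereas each other member held 1 in 291 to 328 codons. The loops of Gimap3 and Gimap5 were identical base for base, and over 895 aligned coding bases the pair was 90.4% identical. The next closest pair, Gimap8 and Gimap7, reached 73.9% and the most distant, Gimap9 and Gimap1, 55.8%. Because reads that fit several places were not counted in genes, the share of 50-base exon windows that occurred in no other gene's annotated transcripts was computed, leaving out gene models that overlap the cluster itself, such as the read-through model described with the cluster. It was 90.0% for Gimap5 and 91.9% for Gimap3, which had 190 windows in common, 97.2% for Gimap1, 99.8% for Gimap6 and 100% for Gimap4, Gimap7, Gimap8 and Gimap9. Counts of Gimap3 and Gimap5 are therefore uncertain over a small part of their length, and this holds in both groups.

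Gene counts per library ranged from 10468795 to 14595018. The lymph node libraries had counts for 12173 to 12540 genes and the skin libraries for 9894 and 9192. Foxp3, the transcription factor that defines Tregs, stood at 94.8 ± 5.09 CPM (CPM are gene counts scaled to a common library size with TMM, SD, n = 3) in lymph node and 97.8 ± 28.1 (SD, n = 2) in skin. Il2ra (1303 ± 136 and 1204 ± 139 CPM), Cd4 (598 ± 180 and 445 ± 9.62 CPM) and Cd3e (2032 ± 246 and 1146 ± 123 CPM) were present in both groups, and Ctla4 was higher in skin (715 ± 94.3 and 2390 ± 272 CPM, adjusted p = 0.0271 by edgeR's quasi-likelihood test). The 17 macrophage and dendritic cell markers in the table summed to 209 to 549 CPM in lymph node and to 5458 to 8303 CPM in skin, with 5 of them without a count in lymph node and all 17 counted in at least 1 skin library. Most of both sums came from Cd74, at 193 to 518 CPM in lymph node and at 3672 and 5688 CPM in skin. The 15 markers that passed the filter on low counts all had a higher mean log2 CPM in skin. Bulk libraries do not tell fewer Gimap-expressing cells from less Gimap RNA per cell.

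Every Gimap gene was lower in both skin libraries than in all 3 lymph node libraries, as the plot of CPM by library shows. Such a gap downwards, with no overlap between groups, was found in 33.5% of the 11437 genes tested, and nothing is read from its presence in the 8 members, whose choice used this contrast. Among the 93 tested genes at or above 1000 CPM in lymph node, which include Gimap4, Gimap3 and Gimap6, it was 59.1%. The median difference in mean log2 CPM (prior count 2, skin minus lymph node) was -3.83 over the 8 members and -0.78 over all tested genes. The size of the difference ranged across the members from 2.63-fold for Gimap8 to beyond the detection floor for Gimap7.

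**Figure D1:**
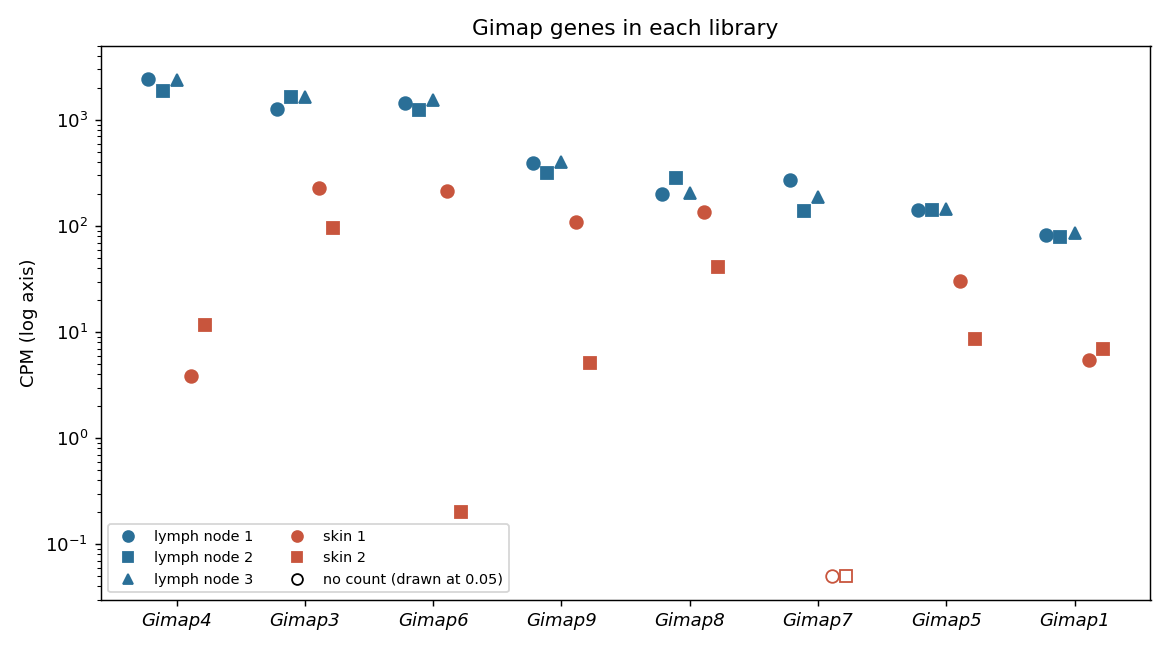
CPM of each Gimap gene (log axis) in the 3 lymph node libraries (blue) and the 2 skin libraries (red), with 1 symbol per library and open symbols for libraries without a count. In every gene the red symbols lie below the blue ones, by 2.63-fold between group means in Gimap8, while Gimap7 has no count in skin and Gimap6 has 216 CPM in skin 1 but 0.200 CPM in skin 2.

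Gimap4, the most abundant member in lymph node Tregs, encodes a protein that has been linked to the course of T cell apoptosis. It stood at 2429, 1885 and 2409 CPM in the lymph node libraries and at 3.84 and 11.8 CPM in the skin libraries, that is 41 and 118 counts against 24052 to 35457. The means were 2241 ± 308 (SD, n = 3) and 7.81 ± 5.62 CPM (SD, n = 2), a 287-fold difference, and both skin libraries lay far below the lowest lymph node library. It was 584-fold lower than the lymph node mean in skin 1 and 190-fold lower in skin 2. Of the 93 tested genes at or above 1000 CPM in lymph node, 2 were lower by 100-fold or more, and Gimap4 is itself among them.

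Gimap7, which forms GTPase dimers with other family members, had 3853, 1776 and 2763 counts in the lymph node libraries and no count in either skin library. Its lymph node levels were 271, 139 and 188 CPM, the widest spread of the family (coefficient of variation 33.4%). No count in skin allows up to 3 counts over the group, or 0.145 CPM, so Gimap7 counts were at least 1374-fold lower in skin. Of the 2274 tested genes between 100 and 1000 CPM in lymph node, 8 (0.352%) had no skin count, and Gimap7 is itself among them.

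Gimap6, whose protein binds a member of the Atg8 family and acts in autophagy, separated the skin libraries from each other. Its lymph node levels were 1448, 1251 and 1562 CPM. Skin 1 held 216 CPM from 2303 counts, 6.59-fold below the lymph node mean, whereas skin 2 held 0.200 CPM from 2 counts. The ratio of lymph node to skin 2, pooled over the lymph node counts, was 7150 with a 95% interval for counting error of 1979 to 59042. The mean of the skin libraries, 108 ± 152 CPM (SD, n = 2), thus stands for neither of them. Gimap9 showed the same order at a smaller size. It stood at 396, 318 and 400 CPM in lymph node, at 108 CPM in skin 1 and at 5.09 CPM in skin 2, a 21.3-fold difference between the skin libraries. Skin libraries 10-fold or more apart were found for 203 (8.93%) of the genes between 100 and 1000 CPM in lymph node and for 2 of the 93 genes above. Gimap9 is itself among the former and Gimap6 among the latter.

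Gimap3, whose protein is anchored in membranes and affects the inheritance of mitochondrial DNA variants in mice, was the most abundant member in both skin libraries. It stood at 1283, 1634 and 1649 CPM in lymph node and at 226 and 95.3 CPM in skin, a 9.46-fold difference of means. Its near copy Gimap5, which is needed for lymphocyte survival, stood at 141, 143 and 144 CPM in lymph node, the tightest values of the family (coefficient of variation 1.13%), and at 30.1 and 8.59 CPM in skin. The difference of means was 7.36-fold for Gimap5. In both genes of this pair skin 1 was above skin 2, by 2.38-fold for Gimap3 and 3.51-fold for Gimap5.

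Gimap1, required for mature T and B cells, was the least abundant member in lymph node at 81.5, 79.5 and 86.0 CPM. Skin levels were 5.43 and 6.99 CPM from 58 and 70 counts, a 13.3-fold difference of means. It was the member with counts whose skin libraries were closest together, with a skin 1 to skin 2 ratio of 0.777. Gimap8, the member with 3 GTPase loops, differed least between groups. It stood at 203, 284 and 204 CPM in lymph node and at 134 and 40.8 CPM in skin, 1.71-fold below the lymph node mean in skin 1 and 5.64-fold in skin 2. Skin 1 was above skin 2 in 5 of the 8 members, below it in Gimap4 and Gimap1, and both were at 0 in Gimap7.

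Levels can be compared between genes once divided by exon length (CPM per kb of coding-transcript exon). On this scale the lymph node order was Gimap4 at 1220 ± 168, Gimap3 at 591 ± 80.3, Gimap6 at 445 ± 49.2, Gimap9 at 226 ± 28.4, Gimap7 at 147 ± 49.0, Gimap5 at 72.9 ± 0.826, Gimap8 at 62.2 ± 12.6 and Gimap1 at 48.1 ± 1.95 CPM per kb (SD, n = 3). The first 5 ranks and the last were the same in all 3 lymph node libraries. Gimap5 and Gimap8, ranks 6 and 7, exchanged places in lymph node 2 and did not differ beyond their spread. In skin 1 the order was led by Gimap3 at 87.9, Gimap6 at 67.5, Gimap9 at 66.1 and Gimap8 at 36.3 CPM per kb. In skin 2 it was led by Gimap3 at 37.0, Gimap8 at 11.0 and Gimap4 at 6.41 CPM per kb. Gimap4 thus moved from rank 1 in every lymph node library to rank 7 in skin 1 and rank 3 in skin 2, and Gimap3 from rank 2 to rank 1 in both.

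Summed over the 8 genes, the family held 6252, 5734 and 6641 CPM in the lymph node libraries and 724 and 169 CPM in the skin libraries. This is 0.594 to 0.670% of all gene counts in lymph node, against 0.0717% in skin 1 and 0.0161% in skin 2. The ratio of group means was 13.9, with 8.57 for skin 1 alone and 36.8 for skin 2 alone. Over 20 T cell genes (CD3 chains, Cd4, Lck, Zap70 and others) the sum was 22848 to 25567 CPM in lymph node and 15620 to 16716 CPM in skin, a ratio of 1.51. Gimap counts amounted to 25.1 to 26.0% of these T cell counts in lymph node and to 4.64 and 1.01% in skin, a ratio of 9.01. The family was thus lower in skin also relative to the T cell genes of the same libraries. The summed macrophage and dendritic cell markers were also higher in skin, and their part in the Gimap difference beyond this scaling was not tested.

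**Figure D2:**
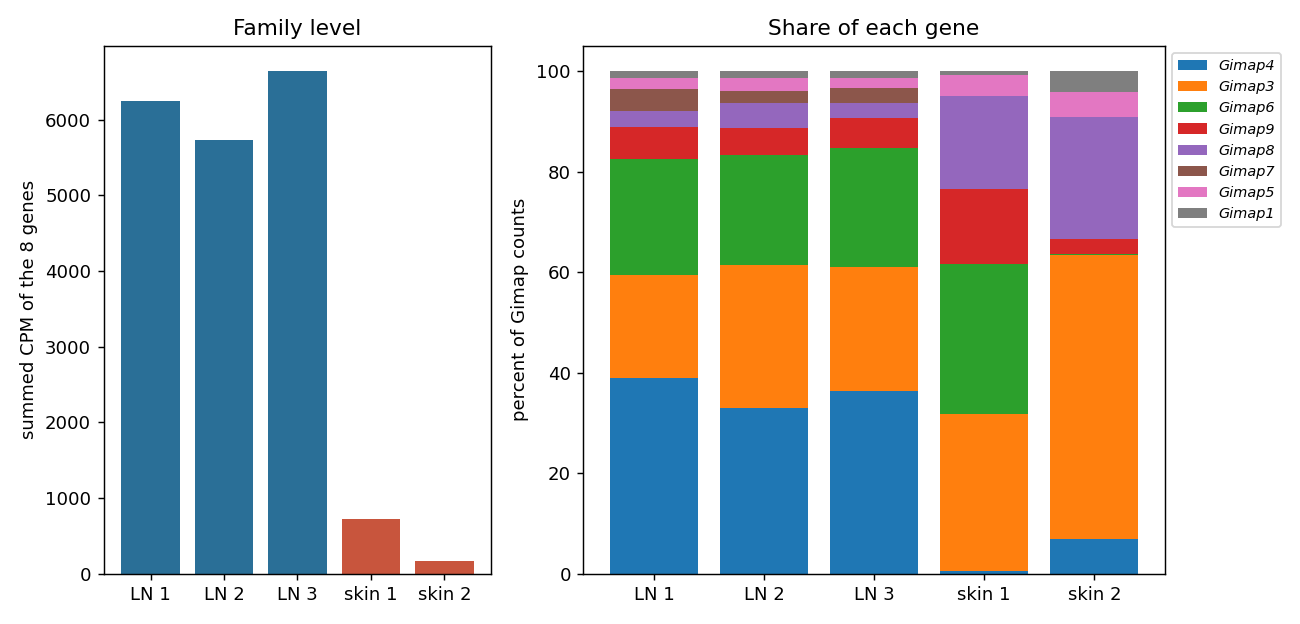
Left, summed CPM of the 8 Gimap genes in each library. Right, the percentage of Gimap counts in each library that fell on each gene. The lymph node libraries lie between 5734 and 6641 CPM with Gimap4 as the largest share, and in the skin libraries (724 and 169 CPM) Gimap3 and Gimap8 take larger shares and Gimap4 0.530 and 6.98%.

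The makeup of the family differed with it. Gimap4 made up 36.0 ± 3.0% of Gimap counts in lymph node (SD, n = 3), Gimap3 24.6 ± 3.99% and Gimap6 22.8 ± 0.894%. In skin 1 the largest shares were Gimap3 at 31.3%, Gimap6 at 29.8% and Gimap8 at 18.6%, with Gimap4 at 0.530%. In skin 2 they were Gimap3 at 56.4% and Gimap8 at 24.2%, with Gimap4 at 6.98% and Gimap6 at 0.118%. The shares of Gimap3, Gimap8 and Gimap5 were above all lymph node shares in both skin libraries. They were 31.3 and 56.4% against 20.5 to 28.5% for Gimap3, 18.6 and 24.2% against 3.07 to 4.95% for Gimap8 and 4.16 and 5.09% against 2.16 to 2.49% for Gimap5.

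B cells and endothelial cells also express Gimap genes, and their markers were looked at in the same libraries. The 10 B cell markers summed to 85.6 to 260 CPM in lymph node and 22.1 to 72.3 CPM in skin, where 9 of the 10, Ms4a1 among them, had no count and Cd79b held the whole sum. Endothelial markers summed to 355 to 501 CPM in lymph node and 2.90 to 69.1 CPM in skin, mostly from Pecam1, which T cells also express, and 6 of 10 had no count in lymph node. Keratinocyte markers summed to 12.3 to 15.6 CPM in lymph node and 179 to 207 CPM in skin, and mast cell markers to 15.3 to 26.4 and 0 to 12.8 CPM. Fibroblast markers summed to 81.1 to 132 and 253 to 288 CPM, mostly from Thy1, which T cells also express and which is in the T cell list too. Thy1 alone stood at 123, 66.3 and 107 CPM in lymph node and at 198 and 243 CPM in skin. Of the other fibroblast markers Sparc was highest in skin, at 84.6 and 8.09 CPM, and Dpt was lower in skin, at 0.19 and 0.30 CPM against 4.78 to 10.1 CPM. The part of these cells in the Gimap levels was not tested.

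The cluster spans chr6:48647234-48770851 in mm10, a stretch of 123.618 kb that holds Gimap8, Gimap9, Gimap4, Gimap6, Gimap7, Gimap1, Gimap5 and Gimap3 in this order. Gimap6 and Gimap3 lie on the minus strand and the others on the plus strand. The genes span chr6:48647234-48660875 (Gimap8), chr6:48676129-48679114 (Gimap9), chr6:48684549-48692060 (Gimap4), chr6:48701582-48708225 (Gimap6), chr6:48718621-48724636 (Gimap7), chr6:48739054-48743795 (Gimap1), chr6:48746197-48754210 (Gimap5) and chr6:48764464-48770851 (Gimap3). A read-through gene model, Gm28053, overlaps Gimap7, Gimap1 and Gimap5, and the antisense model Gimap1os overlaps Gimap1. Neither name was among the genes of the count table that were placed in or within 500 kb of the cluster. Reads shared with Gm28053 would be left unassigned only where an annotation holds both models. The strand setting is not given in the sources used here. In difference of mean log2 CPM, the neighbours Gimap4, Gimap6 and Gimap7 lay at -8.33, -7.33 and -10.23. The value of Gimap6 rests on skin 2 with its 2 counts, since without that library it was -2.71, smaller in size than Gimap1 at -3.88 and next to Gimap3 at -2.74. Gimap4 (-9.12) and Gimap7 (-10.23) had the largest differences also without skin 2. With no skin count, the value of Gimap7 depends on the prior count of 2, and at a prior count of 0.5 it was -12.23. The other genes lay at -1.61 for Gimap8 and -3.95 for Gimap9 on one side, and at -3.71 for Gimap1, -3.13 for Gimap5 and -3.36 for Gimap3 on the other.

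**Figure D3:**
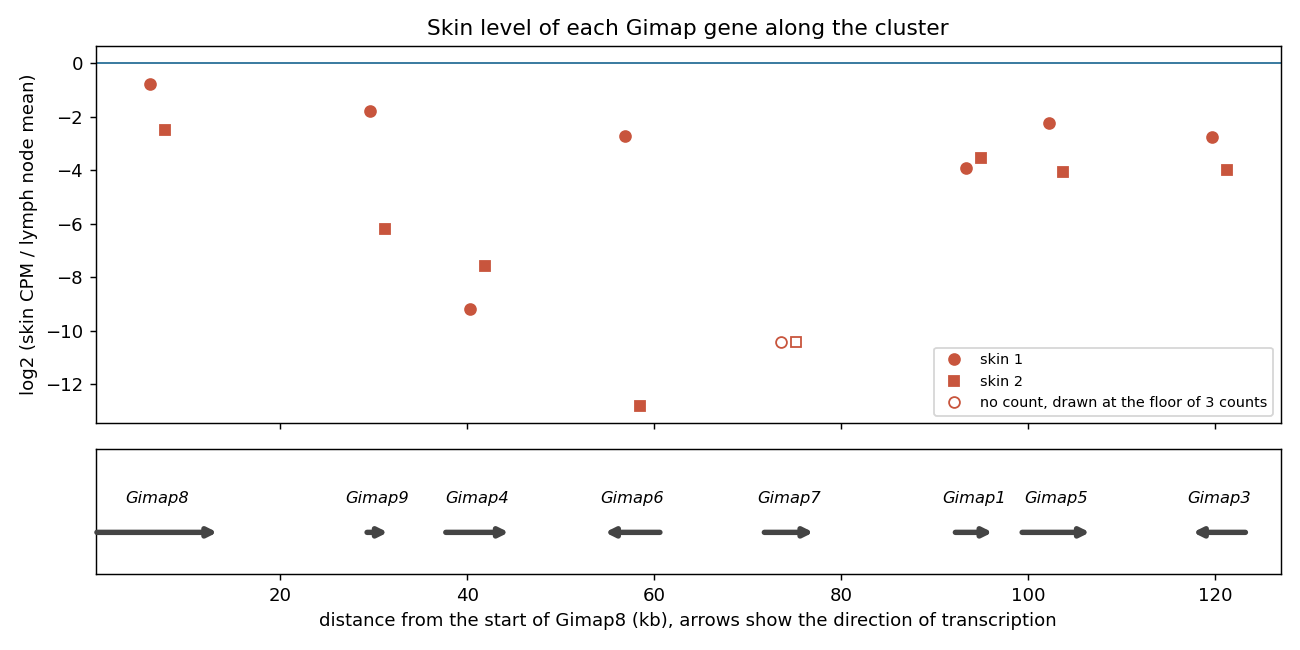
Top, log2 ratio of each skin library to the lymph node mean for each Gimap gene at its place in the cluster. Open symbols stand at the floor of 3 counts over the whole skin group, 0.145 CPM. Bottom, the genes as arrows in the direction of transcription, by distance in kb from the start of Gimap8. Both libraries are low at Gimap4 and Gimap7, whereas at Gimap6 and Gimap9 skin 2 lies far below skin 1.

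Of the 21 genes of the table within 500 kb of the cluster's ends, 11 had no skin count, and 6 of these had no count in any library. Of the 14 tested, 1 was higher and 1 lower in skin, where 2.4% of all tested genes were called higher, 5.3% lower and 7.7% in either direction (edgeR quasi-likelihood test, Benjamini-Hochberg adjusted p under 0.05). Tmem176b, a membrane protein gene of myeloid cells and some T cells, rose from 12.6, 16.9 and 3.06 CPM to 133 and 626 CPM (adjusted p = 0.0484, edgeR). Lrrc61 fell from 29.9, 46.2 and 41.6 CPM to 0.281 and 0 CPM (adjusted p = 0.0497, edgeR). The median difference of the 14 was -2.92 in log2 CPM, against -0.78 over all tested genes. It was below 0 in 12 of them and above 0 in 2, where 7569 of all 11437 tested genes lay below 0. Without any 1 of the lymph node libraries neither call held, where 0 of all tested genes were called. In those fits 3 to 4 neighbours had an unadjusted p under 0.05 in edgeR, as did 2361 to 2485 of all tested genes. The neighbour most abundant in lymph node, Igf2bp3, stood at 135 ± 4.91 CPM (SD, n = 3) in lymph node and 119 ± 18.3 CPM (SD, n = 2) in skin.

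The promoters of the members were searched for 7 short motifs on both strands, in windows from 250 bases before to 50 after each RefSeq start (GRCm38.p6, the assembly of mm10). All 8 genes matched, and Gimap8 had a pair of overlapping windows, so 9 windows were read. The ETS letters CGGAAG were found in 4 of 9 windows (Gimap6, Gimap1 and both of Gimap8), against 16.9% of all 32851 windows. RUNX (TGTGGT) was found in 3, those of Gimap4, Gimap7 and Gimap1, against 16.8%. Forkhead (TAAACA) was found in 2 (13.4%), TCF/LEF (CTTTGA) in 2 (16%), Sp (GGGCGG) in 2 (35.7%), Ikaros (TGGGAA) in 1 (25.6%) and the CACCC box (CACACCC) in 0 (7.95%). The 250 upstream bases of Gimap6 and Gimap7 are shown because these neighbours had, respectively, 2303 and 2 counts in the skin libraries and none in either. Capitals mark the ETS letters in Gimap6, first on the opposite and then on the same strand as the gene, and the RUNX and then the Sp letters in Gimap7, both on the opposite strand.
Gimap6, chr6:48708245-48708494, minus strand: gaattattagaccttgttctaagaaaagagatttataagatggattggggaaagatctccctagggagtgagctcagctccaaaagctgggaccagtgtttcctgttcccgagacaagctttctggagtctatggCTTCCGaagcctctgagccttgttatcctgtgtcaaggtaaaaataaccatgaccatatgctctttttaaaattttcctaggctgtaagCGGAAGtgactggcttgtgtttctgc
Gimap7, chr6:48718371-48718620, plus strand: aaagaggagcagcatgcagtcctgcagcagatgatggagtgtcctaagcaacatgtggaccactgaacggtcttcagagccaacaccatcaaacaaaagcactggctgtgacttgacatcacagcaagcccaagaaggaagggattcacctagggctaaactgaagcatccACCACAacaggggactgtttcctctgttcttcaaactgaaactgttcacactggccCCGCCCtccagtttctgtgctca

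A match says only that these letters occur in the window. The overlapping Gimap8 windows share 1 ETS match, and no match overlapped one of another motif. No motif searched was present in all members, and the Gimap5 window held none of the 7.

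Genes of the processes in which GIMAP proteins are known to act were read from the same fit. Of 20 genes linked to GIMAP function in survival and autophagy, 19 were tested, of which 0 were higher and 1 was lower in skin. Over all tested genes these shares were 2.4% and 5.3%. Their median difference was -0.25 in log2 CPM. In edgeR 4 of them had an unadjusted p under 0.05, as did 3372 of all 11437 tested genes. The lower one was Bcl2, the antiapoptotic protein whose family GIMAP proteins have been reported to bind. It fell from 534, 726 and 892 CPM in lymph node to 29.3 and 15.2 CPM in skin, with a log2 fold change of -5.01 ± 0.47 (SE, adjusted p = 0.0229, edgeR). Its groups did not overlap. Gabarapl2, the Atg8 family partner of Gimap6, stood at 13.8 ± 4.58 CPM (SD, n = 3) and 10.5 ± 0.346 CPM (SD, n = 2) and did not pass the test, as did not Bcl2l1 at 148 ± 13.8 and 282 ± 63.7 CPM. Both were chosen after their values were seen.

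Of 20 genes of lymphocyte quiescence and recirculation, all tested, 6 fell and 0 rose, against 5.3% of all tested genes called lower, and the median difference was -2.79. Like the other lists, this one was chosen with earlier results of these data known, so its share is a description only. Satb1, a chromatin organiser of T cells, had 143, 139 and 167 CPM in lymph node and no count in either skin library (adjusted p = 0.0209, edgeR). Lef1, a TCF family factor, fell from 512, 505 and 581 CPM to 80.6 and 62.5 CPM (adjusted p = 0.0224, edgeR). S1pr1, the receptor that guides exit from lymph nodes, fell from 1067, 1105 and 1254 CPM to 186 and 99.8 CPM (adjusted p = 0.0302, edgeR). At an unadjusted p under 0.05, 10 of the 20 passed in edgeR, as did 3372 of all 11437 tested genes. Satb1 and Gimap7 were alike in having no skin count.

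Related GTPases were not uniformly lower. Of 19 other small GTPases tested, 1 rose and 1 fell, with a median difference of 0.12. Over all tested genes 2.4% were called higher and 5.3% lower, and nothing is read from the few calls in the lists of this paragraph. Rab11a, a GTPase of recycling endosomes, rose from 29.1, 28.9 and 32.6 CPM to 135 and 127 CPM (adjusted p = 0.0469, edgeR). Rhoh, a GTPase of haematopoietic cells, fell from 791, 756 and 876 CPM to 448 and 354 CPM (adjusted p = 0.0496, edgeR). Of 9 septins tested, the GTPases whose nucleotide-binding domain is closest to that of GIMAPs, 1 rose and 0 fell, with a median of -0.09. Sept11 rose from 167, 193 and 197 CPM to 899 and 569 CPM (adjusted p = 0.0381, edgeR). Among the 20 T cell genes 2 fell and 0 rose, with a median of -0.74, close to that of all tested genes. They were Cd5, from 1035 ± 74.9 (SD, n = 3) to 415 ± 17.5 CPM (SD, n = 2, adjusted p = 0.0381, edgeR), and Lck, from 2912 ± 174 to 1588 ± 250 CPM (adjusted p = 0.0492, edgeR). No test was made of the Gimap genes against any of these lists. Without any 1 of the lymph node libraries no gene of these 5 lists passed in edgeR, where 0 of all tested genes passed. In those fits 8 to 9 quiescence genes and 5 to 10 T cell genes had an unadjusted p under 0.05, as did 2361 to 2485 of all tested genes. Fits without skin 1 or without skin 2 rest on 1 skin library, and their calls are not given for these lists.

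**Figure D4:**
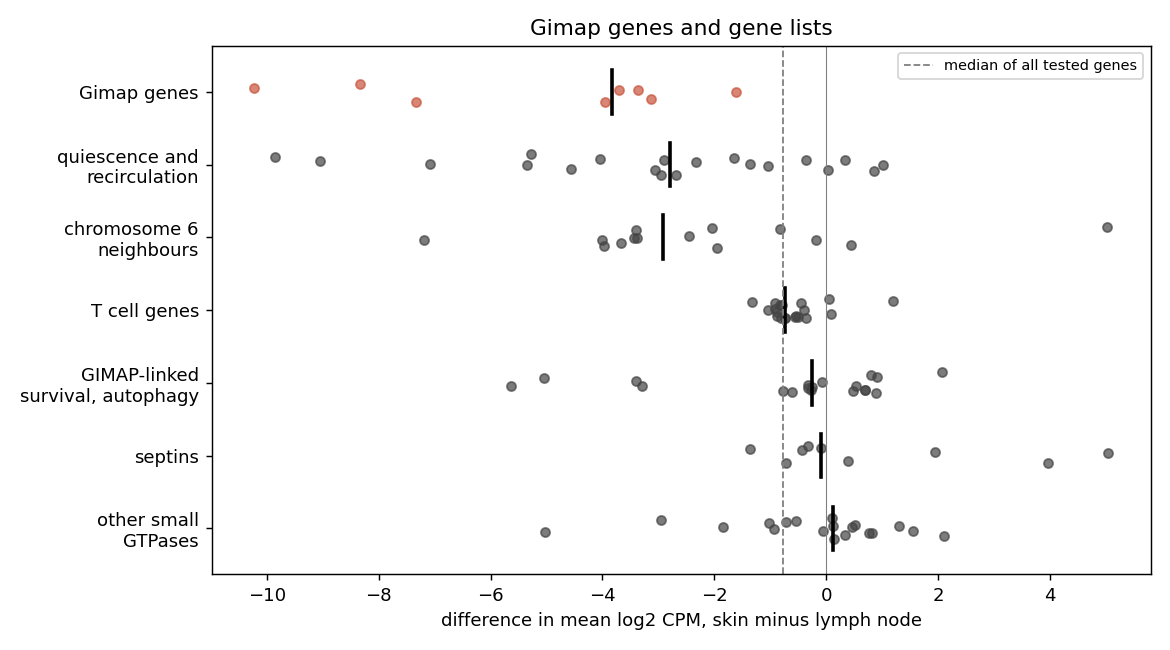
Difference in mean log2 CPM (skin minus lymph node) of each tested gene (points) in the Gimap family (red) and in 6 lists (grey), with the list median (black bar) and the median of all tested genes (dashed line, -0.78). The Gimap genes span -10.23 to -1.61 with a median of -3.83, and the other small GTPases have a median of 0.12. The lowest value is that of Gimap7, which has no skin count, so it depends on the prior count.

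Among 5602 expressed genes outside the family, those whose pattern over the 5 libraries was most like the Gimap median were named by the root mean square distance of log2 CPM centred on the lymph node mean. The Gimap median lay at -2.73 in skin 1 and -5.08 in skin 2 on this scale. The closest were Cmah (distance 0.19), an enzyme of sialic acid synthesis, Nsmce1 (0.21), a subunit of the SMC5/6 complex, Dusp6 (0.24), a phosphatase of ERK kinases, Dennd2d (0.32), a Rab exchange factor, and Cd200 (0.33), a surface ligand of a myeloid receptor. Cmah, the nearest, stood at 160, 163 and 239 CPM in lymph node and at 29.9 and 6.09 CPM in skin. All 5 were lower in skin 2 than in skin 1, an order set by their choice for likeness to the Gimap median. Skin 2 also had the fewest genes detected, 9192, and the part of gene loss at low input in these values was not tested.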

How the data were processed

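RNA of sorted Tregs was sequenced in 3 lymph node and 2 skin libraries, made per the labels' protocols with the SMARTer ultra-low-input kit. The tools named by the submitters' processing notes are HTSeq 0.6.1, SAMtools 0.1.19.0, Bowtie2 2.1.0.0, TopHat2 2.0.12 and CASAVA 1.8.2, with build mm10. Options, such as the use of strand, were not given in the sources used here. What the authors deposited is a table of raw counts per gene symbol, whose header is shifted by 1 cell. Its 5 HTSeq summary rows entered neither the library sizes nor the fit. Counts that did not align uniquely were 64.5 to 72.0% of the table, counts outside genes 8.35 to 14.0%, and counts in genes 19.3 to 21.7%.

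Counts were fitted with edgeR 4.0.16 in R 4.3.3: filterByExpr (minimum count 10), TMM, quasi-likelihood F test of skin against lymph node over 11437 genes, Benjamini-Hochberg adjustment, threshold 0.05. The script was tested on simulated counts, with a pass mark set at a dispersion of 0.05. The common dispersion of these data was 0.843, so that mark does not cover them. Standard errors of log2 fold changes were derived from the F statistic. Differences in mean log2 CPM use a prior count of 2. A count of 0 allows 3 counts over the group. Both this floor and the interval given cover counting error only, as reads copied by PCR are not independent. DESeq2 1.42.0 and limma-voom (limma 3.58.1) were alternatives, with other scalings, no filter, a replicate block and each library left out.

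The members, the lists and the rule for named genes were chosen with earlier results of these data known. The rule takes the 8 members, up to 4 called genes of each list by adjusted p, the 5 genes nearest in pattern whose average log2 CPM is at least 5, and Foxp3, Il2ra, Ctla4, Cd4 and Cd3e. Some genes that it takes are not reported here. Igf2bp3, Pecam1, Thy1, Sparc, Dpt, Cd79b, Ms4a1 and Cd74 fall outside it and were named after their values were seen. Gene positions and coding sequences come from GENCODE M21, and promoters from RefSeq. No genome sequence was used here, so windows were looked for in GENCODE transcripts, an alternative chosen after seeing the data.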

Additional observations from a re-analysis of the deposited data

How the results depend on the processing

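In all 11 alternatives for the members, each of the 8 genes was lower in skin: 88 recomputed differences, 0 with a changed sign. Every skin value lay below every lymph node value of the same gene. Leaving out a library or pairing replicates could therefore not change a sign. Of the 88 differences, 12 moved by more than 1 SD between the skin libraries, mostly in Gimap7, which had no skin count. The median of the 8 members, -3.83, was -3.24 when counts were scaled to the T cell genes. This scaling moves the median of all tested genes up by 0.56. It ranged from -5.08 (without skin 1) to -2.73 (without skin 2) with 1 library left out, and the family ratio of 13.9 from 8.57 (without skin 2) to 36.8 (without skin 1). Exon windows occurring in 1 gene rose from 97.5% at 50 bases to 99.5% at 100.

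Counts of called genes moved much more, and the cause was not tested. Over all genes, 881 calls became 315 without the filter, 3262 by DESeq2 and 2231 by limma-voom, and ranged from 0 (without any 1 lymph node library, with 2361 to 2485 genes at an unadjusted p under 0.05 in edgeR) to 6065 (without skin 1). With 1 library left out, where a lone skin library is assumed to vary like the lymph node group, calls ranged from 0 to 7 for the GIMAP-linked genes, 0 to 15 for quiescence, 0 to 8 for other small GTPases, 0 to 4 for septins, 0 to 9 for T cell genes and 0 to 6 for neighbours. DESeq2 called 4 GIMAP-linked, 10 quiescence, 5 small GTPase, 3 septin, 8 T cell and 5 neighbouring genes. Limma-voom called 2 septins and 4 T cell genes. It called 3 neighbours, 0 higher and 3 lower in skin, so the rise of Tmem176b did not pass there. Without the filter 0 small GTPases (6 at an unadjusted p under 0.05 in edgeR), 0 neighbours (5) and 1 T cell gene were called, and with DESeq2 size factors in edgeR 1 T cell gene. Over all 14249 genes fitted without the filter, 3413 had an unadjusted p under 0.05 in edgeR.

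With the replicate number as a block, 21 genes were called, of them 2 of quiescence, 1 GIMAP-linked and 0 small GTPases, septins, T cell genes and neighbours (1, 1, 1 and 2 at an unadjusted p under 0.05 in edgeR). Over all 11437 genes, 772 had an unadjusted p under 0.05 in that fit. Same-numbered libraries had deviations correlated at -0.03 and -0.02. With 2 skin libraries the skin deviations mirror each other, so these values can hardly show pairing. The labels give no shared source, and the numbers were not taken as pairs. The depth limits Gimap6 in skin 2 (2 counts) and Gimap7 in skin (0 counts).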
